A study of Mus musculus with 15 samples.

Results

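The Id genes Id1, Id2, Id3 and Id4 encode helix-loop-helix proteins that lack a basic region and therefore cannot bind DNA. They were followed across 5 lines of 4T1, a metastatic mouse mammary carcinoma cell line. All 4 members were found among the 19937 genes with a probe set carrying a single symbol, and each was read by 1 probe set only, so no choice between probe sets was needed. Members were chosen by name as the known Id family, with earlier results of these data in view.

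The groups were 3 arrays each of the S42D line, the S42A line, the wild-type Twist1 line, the Tw1KD line and parental 4T1 cells. Tw1KD cells were 4T1 cells depleted of endogenous Twist1. The S42D, S42A and wild-type Twist1 lines were Tw1KD cells in which Twist1 S42D, Twist1 S42A or unmutated Twist1 was expressed again, so all 3 also carry the depletion. Serine 42 of Twist1 is a known target of the kinase Akt. Alanine at this position accepts no phosphate, and aspartate has a negative charge as phosphoserine does. The genotype label of the S42D arrays names both substitutions, and their title names S42D. Cultures were taken at 70% confluency from medium that, for every line including parental, the labels describe as holding 4 µg/ml puromycin and 800 µg/ml G418, and 100 ng of total RNA per sample went onto the arrays. How Twist1 was depleted, what drives its return, whether a line is 1 clone, and whether the 3 replicates of a line were separate cultures are not given in the sources used here. The p-values therefore measure only the spread between these samples.

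Id proteins pair with the E proteins, the broadly expressed class of basic helix-loop-helix factors encoded by Tcf3, Tcf4 and Tcf12. A tissue-restricted factor such as Twist1 needs an E protein (or a second Twist1 molecule) to bind DNA at E-boxes, so Id proteins compete with Twist1 for its partners. Bone morphogenetic proteins (BMPs) are classic inducers of Id1, Id2 and Id3 through Smad1, Smad5 and Smad9, and Id1 is known in mammary cells for holding back differentiation and favouring proliferation.

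Sequence just upstream of the transcription start is shown for the 3 members that have an entry in the RefSeq promoter table (GRCm38.p6), because these members had different patterns over the lines. Each run is the 250 bases before the annotated start, on the strand of the gene, 5′ to 3′. The Id2 run lies at chr12:25096093-25096342 on the minus strand, the Id3 run at chr4:136143572-136143821 on the plus strand and the Id4 run at chr13:48260866-48261115 on the plus strand. Capitals mark matches to 3 motifs searched on both strands: the E-box CANNTG, the GC-rich Smad element GGCGCC, and TGACG, the core of the cyclic AMP response element.
Id2: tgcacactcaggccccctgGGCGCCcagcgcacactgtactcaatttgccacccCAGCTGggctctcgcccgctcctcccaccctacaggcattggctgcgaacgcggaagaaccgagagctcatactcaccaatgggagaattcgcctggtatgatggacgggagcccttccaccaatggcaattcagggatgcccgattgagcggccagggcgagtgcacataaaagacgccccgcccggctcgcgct
Id3: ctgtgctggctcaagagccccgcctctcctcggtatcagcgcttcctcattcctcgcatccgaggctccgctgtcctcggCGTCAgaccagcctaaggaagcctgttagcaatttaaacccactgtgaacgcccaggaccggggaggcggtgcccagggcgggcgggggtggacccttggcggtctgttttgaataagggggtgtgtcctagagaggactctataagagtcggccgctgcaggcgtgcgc
Id4: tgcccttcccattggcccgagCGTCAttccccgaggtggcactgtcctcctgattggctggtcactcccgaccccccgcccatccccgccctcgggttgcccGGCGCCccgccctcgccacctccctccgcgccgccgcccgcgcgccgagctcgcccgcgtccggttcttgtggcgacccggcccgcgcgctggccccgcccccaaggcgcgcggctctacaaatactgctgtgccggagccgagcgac

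Id2 was the only one of the 3 with an E-box in this window, CAGCTG at 196 to 191 bases upstream of the start, while 66.2% of the 32851 promoters in the table held an E-box in the same length. None of the 3 held CATATG, itself a form of CANNTG and the E-box type best known for Twist proteins, which 3.46% of all promoters held. GGCGCC was found in Id2 (231 to 226 bases upstream) and in Id4 (148 to 143), against 9.59% of all promoters. The response element core was found as its reverse complement CGTCA in Id3 (170 to 166 bases upstream) and in Id4 (229 to 225), against 17.8% of all promoters. GC content was 62.8% for Id2, 62.8% for Id3 and 75.6% for Id4, with a median of 52.4% over all promoters. These matches describe letters only. Whether Twist1, an E protein or a Smad was bound there was not measured.

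Levels below are log2 array intensities as deposited, and differences are log2 differences between line means ± the standard error (n = 3 arrays per line), tested by limma over all genes with Benjamini-Hochberg adjustment and called at an adjusted p under 0.05. Pairs of arrays correlated, over all genes, at 0.997 to 0.999 inside a line and at 0.975 to 0.987 when they came from different lines. Twist1 itself (probe set 10395320) averaged 8.9996 ± 0.058 in the S42D line, 8.70 ± 0.099 in the S42A line, 8.33 ± 0.16 in the wild-type Twist1 line, 7.35 ± 0.12 in Tw1KD cells and 9.03 ± 0.031 in parental cells (log2, SD, n = 3 each), and it is not known if its probes match transcripts made from the constructs. Twist1 was 0.67 ± 0.080 higher in S42D and 0.37 ± 0.080 higher in S42A than in the wild-type line (adjusted p = 6.2e-06 and 0.0016). S42D minus S42A was 0.29 ± 0.080 for Twist1 (adjusted p = 0.0089). Each form came as 1 line, and no group is named as holding an empty construct. The form of Twist1, its level and the making of the line therefore cannot be told apart. Of 10 mammary epithelial markers, 9 to 10 per line lay above log2 5.51, the upper bound of the dimmest 25% of genes, with list means of 8.62 in the S42D line, 8.17 in the S42A line, 8.93 in the wild-type Twist1 line, 10.50 in Tw1KD cells and 10.04 in parental cells. Epcam lay barely above that bound in the S42D, S42A and wild-type Twist1 lines (5.63, 5.55 and 5.66), against 9.76 in Tw1KD and 8.36 in parental cells. Esrp1 was at 7.84 in parental cells and at 5.05 to 5.22 in the other lines. Krt8 and Krt18 stayed between 12.31 and 13.18 in all lines. Among 6 leukocyte markers, 2 (Cd3e and Cd68) lay above that bound in every line, and Ptprc, which defines the lineage, was at 5.11 to 5.23. Cd68 was at 10.71 in the S42D, 10.27 in the S42A, 9.80 in the wild-type Twist1 and 10.38 in the Tw1KD line. In parental cells Cd68 was lower, at 8.50. Cd3e stayed between 6.54 and 6.83 in all lines. Of 7 fibroblast markers, 5 to 6 lay above the bound, with list means of 7.12, 7.02, 6.73, 6.80 and 7.17 in the S42D, S42A, wild-type Twist1, Tw1KD and parental lines. In the same order Pdgfra was at 11.38, 10.85, 9.83, 9.60 and 11.29, and Dcn at 6.24, 5.86, 5.40, 5.46 and 6.02. Col1a1, Col1a2, Col3a1 and Thy1 stayed between 6.43 and 7.71 in all lines. The endothelial list had 4 of 6 markers above the bound in every line, and its mean ranged from 6.50 to 6.67 over the S42D arrays, against 5.98 to 6.15 over S42A, 5.87 to 5.93 over wild-type Twist1, 5.87 to 5.98 over Tw1KD and 5.75 to 5.90 over parental arrays. That difference came with the cadherin gene Cdh5 (10.67 in the S42D line, against 7.26, 6.35, 5.99 and 5.66 in the S42A, wild-type Twist1, Tw1KD and parental lines), while Pecam1, Kdr and Tek stayed between 5.08 and 5.60 in all 5 lines. The part of these marker differences in the results on Id genes was not tested. In bulk RNA, fewer cells of a type and less RNA per cell cannot be told apart.

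Id1 (probe set 10477169; chr2:152736251-152737410, GRCm38.p6) was lowest in parental cells and highest in the wild-type Twist1 line. Its log2 levels were 9.11, 9.08 and 9.16 on the S42D arrays, 9.71, 9.76 and 9.83 on the S42A arrays and 10.21, 10.18 and 10.10 on the wild-type Twist1 arrays. They were 9.993, 9.997 and 9.940 on the Tw1KD arrays, against 8.78, 8.63 and 8.79 on the parental arrays. No 2 lines overlapped on their arrays, and the order, from low to high, was parental, S42D, S42A, Tw1KD and wild-type Twist1. All 10 differences between lines were called, so every neighbouring pair in this order differed beyond its spread. The wild-type Twist1 line and Tw1KD cells were 0.19 ± 0.051 apart (adjusted p = 0.0071), and the S42A line and Tw1KD cells 0.21 ± 0.051. After median centring of the arrays these gaps were 0.28 and 0.15, and the smaller one was no longer called. The line means spanned 1.43 log2 units, a 2.70-fold range.

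Depletion of Twist1 was followed by the largest change of Id1 between a line and the one it came from, 1.24 ± 0.051 higher in Tw1KD cells than in parental cells (2.37-fold, adjusted p = 1.6e-10), a size that 1.66% of all genes reached in that comparison. Return of Twist1 did not bring Id1 to the parental level in any line. Against Tw1KD cells it fell by 0.86 ± 0.051 in the S42D line (adjusted p = 4.3e-09) and by 0.21 ± 0.051 in the S42A line (adjusted p = 0.0033), and it was 0.19 ± 0.051 higher in the wild-type Twist1 line. The S42A call was lost when each array was centred on its own median (fell by 0.15, adjusted p = 0.086). Id1 remained above parental cells by 0.38 ± 0.051 with S42D, 1.03 ± 0.051 with S42A and 1.43 ± 0.051 with wild-type Twist1 (adjusted p = 3.2e-05, 9.1e-10 and 3.1e-11). Between the returned forms, Id1 was 1.05 ± 0.051 lower in the S42D line than in the wild-type line, 0.40 ± 0.051 lower in the S42A than in the wild-type line, and 0.65 ± 0.051 lower in the S42D than in the S42A line.

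Id2 (probe set 10399691; chr12:25093799-25096092), a member known in mammary epithelium for its role in alveolar differentiation, changed in the opposite direction on depletion. Its log2 levels were 12.26, 12.28 and 12.18 on the S42D arrays, 12.26, 12.17 and 12.25 on the S42A arrays and 11.80, 11.77 and 11.78 on the wild-type Twist1 arrays. They were 11.18, 10.96 and 11.02 on the Tw1KD arrays, against 11.74, 11.72 and 11.78 on the parental arrays. From low to high the order was Tw1KD, parental, wild-type Twist1, S42A and S42D, with the Tw1KD arrays below all others. The lines fell into 3 levels. The wild-type Twist1 line and parental cells overlapped (difference 0.033 ± 0.053, 95% interval -0.081 to 0.15, adjusted p = 0.64), as did the S42D and S42A lines (0.012 ± 0.053, interval -0.10 to 0.13, adjusted p = 0.90), and the other 8 differences were called.

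Id2 fell by 0.69 ± 0.053 in Tw1KD cells relative to parental cells (1.62-fold lower, adjusted p = 1.1e-07). Against Tw1KD it rose by 1.18 ± 0.053 with S42D, 1.17 ± 0.053 with S42A and 0.73 ± 0.053 with wild-type Twist1 (adjusted p = 2.3e-10, 2.4e-10 and 3.6e-08). Both substituted forms exceeded parental cells, S42D by 0.49 ± 0.053 and S42A by 0.48 ± 0.053, and both exceeded the wild-type line, by 0.46 ± 0.053 and 0.44 ± 0.053 (adjusted p of 8.9e-06 or below for all 4). The Id2 window shown above holds the E-box CAGCTG, while 66.2% of all promoters in the table held an E-box in the same length. Binding there was not measured, and a part of this site in the Id2 changes was not tested.

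Id3 (probe set 10509163; chr4:136143822-136145392) was set apart by the S42D line. Its log2 levels were 7.16, 7.14 and 7.12 on the S42D arrays, 8.42 on each of the 3 S42A arrays and 8.51, 8.74 and 8.69 on the wild-type Twist1 arrays. They were 8.55, 8.19 and 8.51 on the Tw1KD arrays, against 8.42, 8.43 and 8.53 on the parental arrays. Every S42D array lay more than 1 log2 unit below every other array, and the other 4 lines lay close together. The 3 S42A values were identical to 6 decimals, and parental replicate 1 had the same value, so this line shows no spread of its own for Id3. Between 18 and 46 genes per line were likewise identical on all 3 arrays.

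Id3 fell by 1.50 ± 0.082 in the S42D line against the wild-type Twist1 line, by 1.28 ± 0.082 against S42A, by 1.28 ± 0.082 against Tw1KD and by 1.32 ± 0.082 against parental cells (2.83-, 2.43-, 2.42- and 2.50-fold lower, adjusted p = 1.7e-09, 1.5e-08, 9.9e-09 and 1.2e-08). These 4 calls held under every alternative run, leaving out each array included. Depletion gave no call for Id3, at -0.047 ± 0.082 in Tw1KD minus parental cells (95% interval -0.22 to 0.13, adjusted p = 0.74), and S42A did not differ by the test from Tw1KD (0.0071 ± 0.082, interval -0.17 to 0.18, adjusted p = 0.96) or from parental cells (-0.040 ± 0.082, interval -0.22 to 0.14, adjusted p = 0.76). The remaining 3 differences were small. The wild-type line was 0.23 ± 0.082 above Tw1KD with overlapping arrays (adjusted p = 0.034), S42A was 0.22 ± 0.082 below the wild-type line (adjusted p = 0.046), and wild type minus parental was 0.18 ± 0.082 (adjusted p = 0.084). The first of these was not called without Tw1KD replicate 2 (0.11, adjusted p = 0.16), nor without wild-type replicate 2 or 3 (adjusted p = 0.13 and 0.095). The call of S42A below the wild-type line was lost without wild-type replicate 2 or 3 or any 1 of the S42A arrays (adjusted p of 0.17, 0.12, 0.095, 0.093 and 0.087) and in a fit that blocks on replicate number (adjusted p = 0.058). Wild type minus parental was called without wild-type replicate 1 (0.25, adjusted p = 0.030).

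Id4 (probe set 10404975; chr13:48261116-48266028) was higher in both substituted lines than in the other 3. Its log2 levels were 7.20, 7.21 and 7.26 on the S42D arrays, 7.60, 7.73 and 7.38 on the S42A arrays and 6.51, 6.54 and 6.67 on the wild-type Twist1 arrays. They were 6.72, 6.85 and 6.69 on the Tw1KD arrays, against 6.66, 6.72 and 6.72 on the parental arrays. From low to high the order was wild-type Twist1, parental, Tw1KD, S42D and S42A. Neighbours among the lowest 3 were not separated by the test. Wild type minus parental was -0.12 ± 0.076 (interval -0.29 to 0.040, adjusted p = 0.20), Tw1KD minus parental was 0.053 ± 0.076 (interval -0.11 to 0.22, adjusted p = 0.67) and wild type minus Tw1KD was -0.18 ± 0.076 (adjusted p = 0.072). That last value was called without wild-type replicate 3 (-0.22, adjusted p = 0.041), and came to -0.085 with median centring (adjusted p = 0.40) and with quantile normalization (adjusted p = 0.39).

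Against Tw1KD cells, Id4 rose by 0.47 ± 0.076 in the S42D line (adjusted p = 0.00012) and by 0.82 ± 0.076 in the S42A line (adjusted p = 4.5e-07). Against the wild-type line the rises were 0.65 ± 0.076 and 0.997 ± 0.076 (1.57- and 1.996-fold, adjusted p = 5.0e-06 and 8.9e-08), and against parental cells 0.52 ± 0.076 and 0.87 ± 0.076. The S42D line stood 0.35 ± 0.076 below the S42A line (adjusted p = 0.0018). Id4 and Id2 were thus both highest in the 2 substituted lines, while Id1 was lower in those lines than in the wild-type line and Tw1KD cells.

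**Figure D1:**
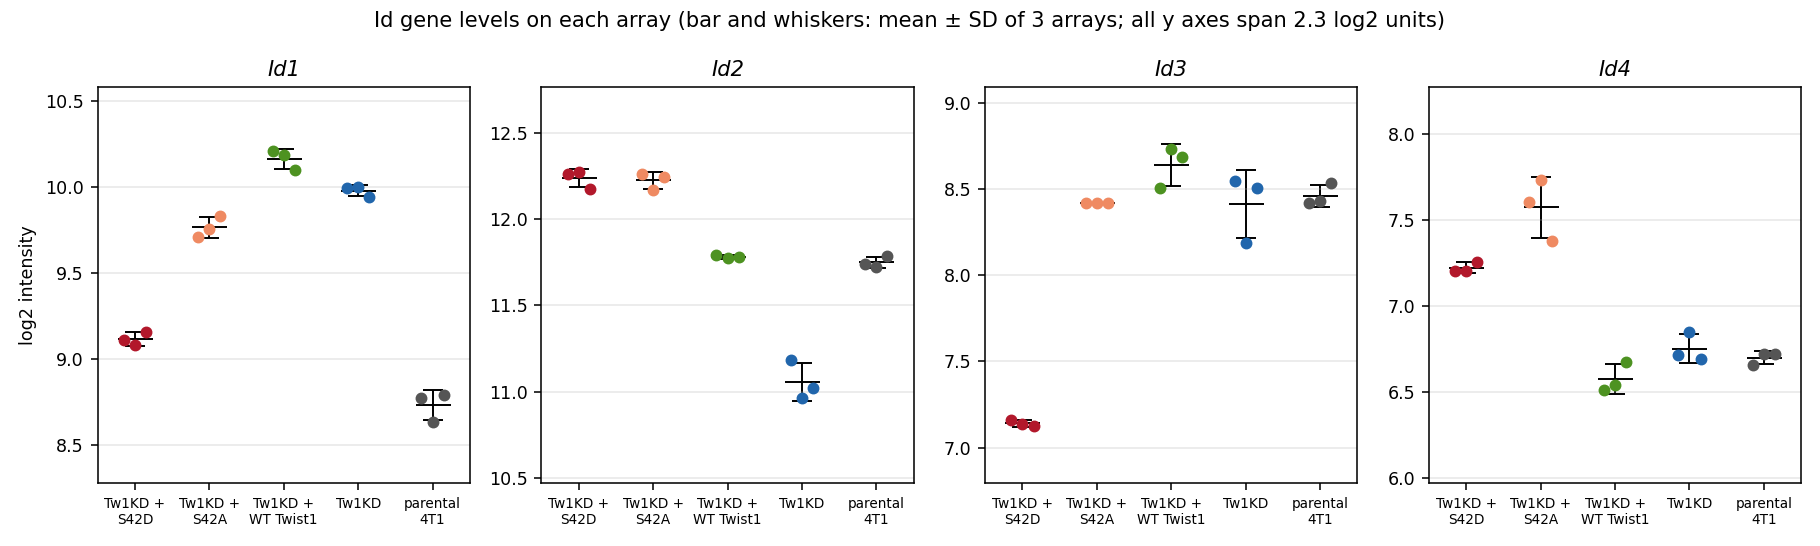
Log2 intensity of Id1, Id2, Id3 and Id4 on each of the 15 arrays, by line (x axis), with points for arrays and bars with whiskers for the mean ± SD of 3 arrays. The S42D points of Id3 lie at 7.12 to 7.16, below all other arrays, and the Tw1KD points of Id2 lie at 10.96 to 11.18, below all other arrays.

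Taking the comparisons in turn, the counts of Id genes called were read against the share of all genes called, which was high throughout. In Tw1KD against parental cells 2 of 4 were called (Id1 higher, Id2 lower), against 36.3% of all genes. Against Tw1KD cells, all 4 were called in the S42D line (2 higher, 2 lower), where 43.4% of genes were called. In the S42A line 3 were called (Id2 and Id4 higher, Id1 lower), against 42.5% of genes, and in the wild-type Twist1 line 3 were called, all higher (Id1, Id2, Id3), against 48.0% of genes. The number in the wild-type line includes the small Id3 difference, whose call was lost in 3 of 6 fits that left out 1 array. These 3 comparisons share the Tw1KD arrays.

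Between the returned forms, 4 were called in S42D against wild type (43.3% of genes), 4 in S42A against wild type (40.0% of genes) and 3 in S42D against S42A (36.1% of genes), all 3 of them lower in S42D. The S42A count against wild type includes the Id3 difference, whose call was lost in 5 of 6 fits that left out 1 array. Without any 1 of the S42A arrays the difference itself stayed at -0.22. Against parental cells, 4 were called in the S42D line (37.0% of genes), 3 in the S42A line (40.3% of genes) and 1, Id1, in the wild-type Twist1 line (49.0% of genes). In all, 31 of the 40 differences were called, against 36.1% to 49.0% of all genes per comparison. The 10 comparisons reuse the same 5 line means, so the 40 differences are not independent. The median size of the 4 differences was 1.02 log2 in S42D against Tw1KD, where the median size over all genes was 0.15, and 0.15 in wild type against parental cells, where it was 0.18 over all genes. Array medians differed between lines by up to 0.12 log2 (the wild-type line was 0.12 below parental cells), and centring on them moved every difference of a comparison by that amount. With it the share of called genes that were higher was 64.3% instead of 49.0% in wild type against Tw1KD, and 73.0%, 72.8% and 71.6% instead of 53.5%, 56.1% and 51.0% in S42D, S42A and wild type against parental cells. Of the Id differences with a call, centring ended 1, that of Id1 in S42A against Tw1KD.

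**Figure D2:**
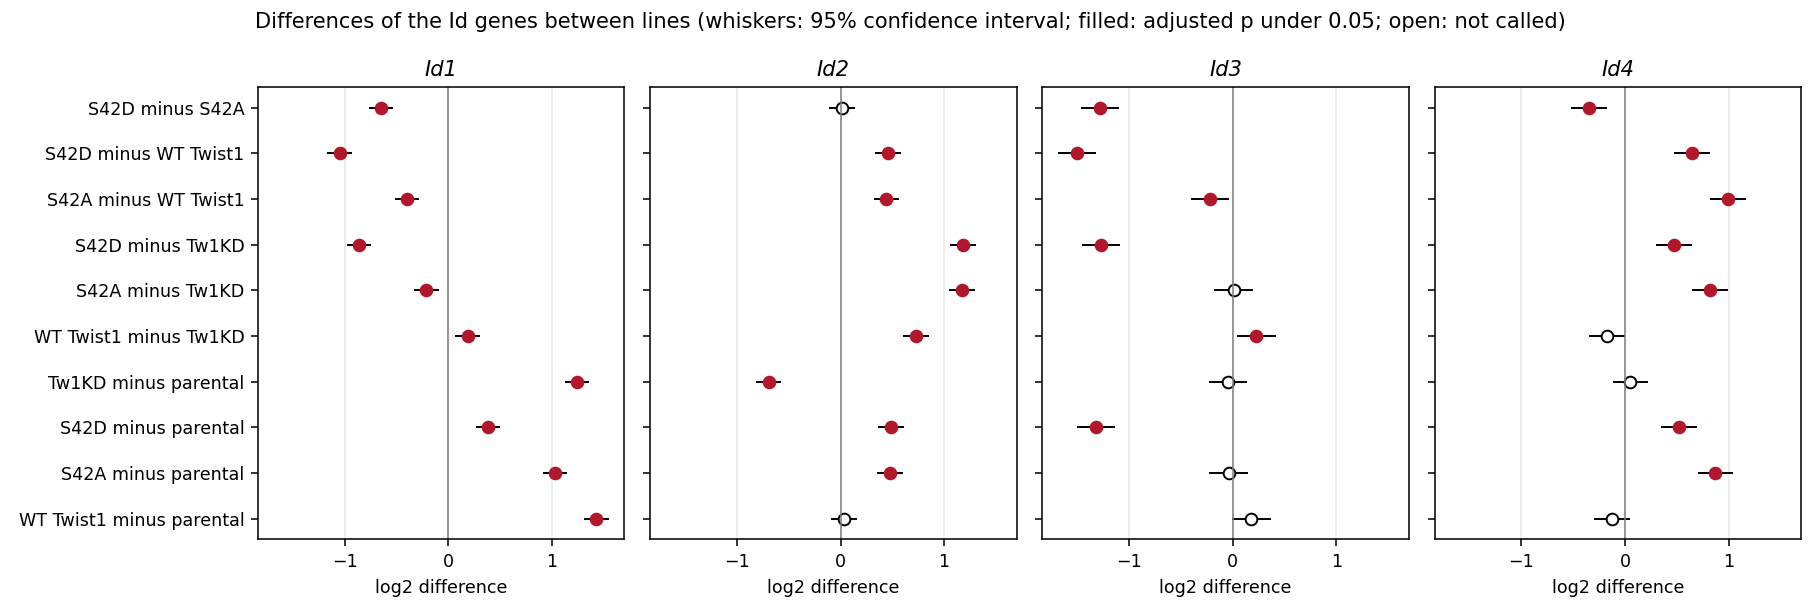
Log2 differences of the 4 Id genes in the 10 comparisons, with 95% intervals. Filled points passed the test at an adjusted p under 0.05 (31 of 40, against 36.1% to 49.0% of all genes per comparison). The S42D comparisons of Id3 lie between -1.50 and -1.28.

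The E protein genes, whose products Id proteins bind, had line means that spanned 0.17 to 0.79 log2, against 0.997 to 1.503 for the Id genes. Tcf3 (encoding E12 and E47) had log2 levels of 10.55, 10.58 and 10.59 on the S42D arrays, 10.57, 10.57 and 10.60 on S42A, 10.61, 10.59 and 10.56 on wild-type Twist1, 10.52, 10.47 and 10.53 on Tw1KD and 10.69, 10.62 and 10.72 on parental arrays. The parental arrays were the highest. Tcf3 fell by 0.17 ± 0.038 in Tw1KD cells relative to parental cells (adjusted p = 0.0025), a call lost with median centring (fell by 0.14, adjusted p = 0.080), and was called against Tw1KD in none of the returned lines (adjusted p of 0.20 in S42D, 0.17 in S42A and 0.10 in the wild-type line). With centring, wild type minus Tw1KD was called (0.17, adjusted p = 0.021).

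Tcf4 (encoding E2-2) had the widest span of the 3. Its levels were 11.88, 11.86 and 11.80 on the S42D arrays, 11.58, 11.59 and 11.59 on S42A, 11.08, 11.05 and 11.03 on wild-type Twist1, 11.42, 11.45 and 11.46 on Tw1KD and 11.66, 11.63 and 11.65 on parental arrays. No 2 lines overlapped. Against Tw1KD, Tcf4 rose by 0.40 ± 0.035 in the S42D line and by 0.14 ± 0.035 in the S42A line, and fell by 0.39 ± 0.035 in the wild-type Twist1 line (adjusted p = 2.7e-07, 0.0039 and 3.1e-07), which made it 0.79 ± 0.035 higher in S42D and 0.53 ± 0.035 higher in S42A than in the wild-type line. It fell by 0.20 ± 0.035 on depletion (adjusted p = 0.00034).

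Tcf12 (encoding HEB) was lowest in the S42A line, with levels of 11.60, 11.62 and 11.52 on the S42D arrays, 11.20, 11.21 and 11.25 on S42A, 11.46, 11.39 and 11.43 on wild-type Twist1, 11.63, 11.55 and 11.60 on Tw1KD and 11.52, 11.51 and 11.56 on parental arrays. Against Tw1KD it fell by 0.37 ± 0.040 in the S42A line (adjusted p = 2.4e-06) and by 0.16 ± 0.040 in the wild-type line (adjusted p = 0.0036, and 0.33 with median centring). The S42D line did not differ from Tw1KD by the test (-0.012 ± 0.040, interval -0.099 to 0.075, adjusted p = 0.84). For the 3 E protein genes together, 1 was higher and 0 lower in S42D against Tw1KD, 1 higher and 1 lower in S42A, 0 higher and 2 lower in the wild-type line and 0 higher and 2 lower in Tw1KD against parental cells. The shares of all genes were 21.7% higher and 21.7% lower in S42D, 22.8% higher and 19.7% lower in S42A, 23.5% higher and 24.5% lower in the wild-type line, and 19.9% higher and 16.4% lower in Tw1KD against parental cells. The medians of the 3 genes were 0.064, 0.071, -0.16 and -0.17 in these comparisons, and the medians over all genes were -0.045, -0.013, -0.061 and 0.0051. These shares and medians over all genes are also the background for the lists below.

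**Figure D3:**
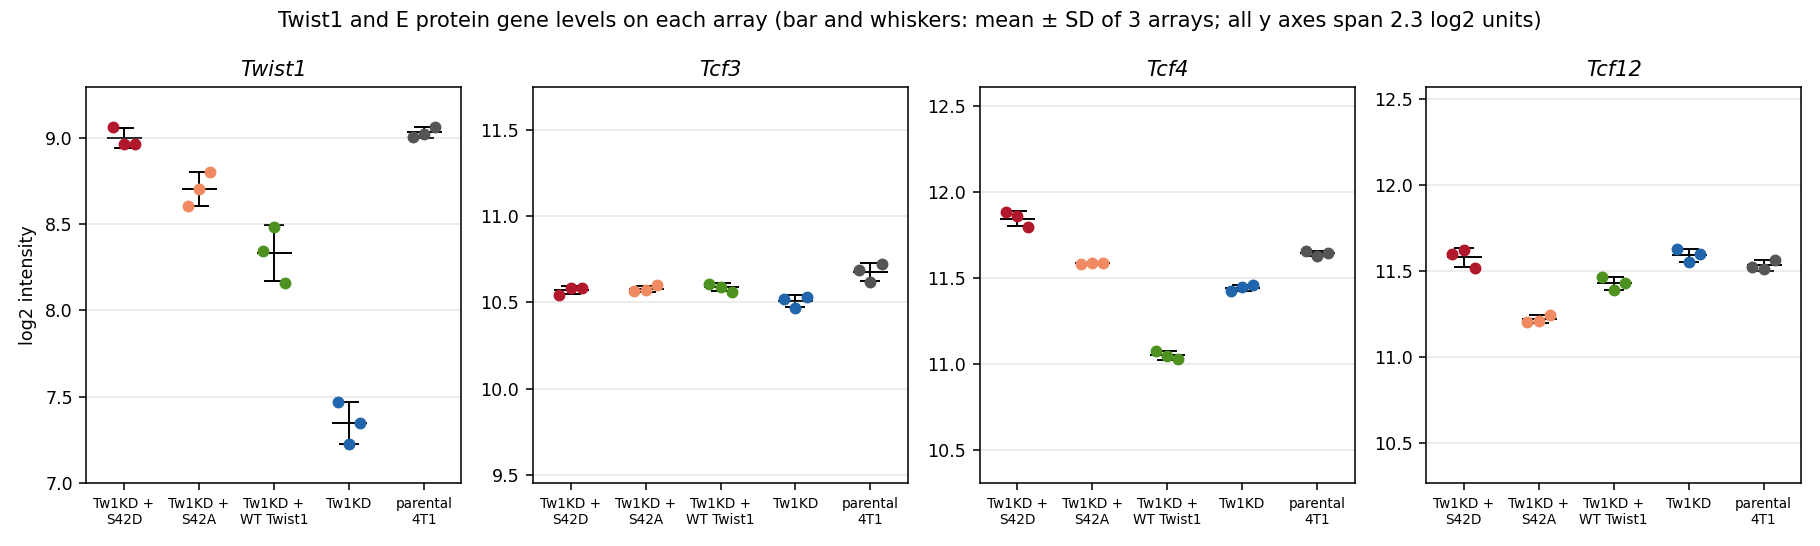
Log2 intensity of Twist1 and of the E protein genes Tcf3, Tcf4 and Tcf12 on each array by line, drawn with y axes of equal span, with bars and whiskers for the mean ± SD of 3 arrays. The Twist1 line means spanned 1.69 log2 and those of Tcf4 0.79, while Tcf3 spanned 0.17.

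Most tissue-restricted factors that share the E proteins as partners were not called. Of 31 analysed, 1 was higher and 1 lower in S42D against Tw1KD, 2 and 2 in S42A, 2 and 4 in the wild-type line and 2 higher and 1 lower in Tw1KD against parental cells, below the shares of all genes. Their median differences lay between -0.11 and 0.025, and those of all genes between -0.061 and 0.0051. Twist1 itself was the largest change in each. Atoh8 rose by 0.51 ± 0.072 in the S42A line and 0.25 ± 0.072 in the wild-type line, and was at 0.016 in S42D minus Tw1KD (adjusted p = 0.88). Scx, a factor of tendon cells, fell by 0.30 ± 0.060 in the S42A line, with 0.077 in S42D and 0.030 in wild type (not called). The muscle factor gene Myog, at dim levels of 6.13 with S42D and 5.98 with wild-type Twist1, against 6.37 in Tw1KD cells, fell by 0.38 ± 0.082 in the wild-type line (adjusted p = 0.0012) and by 0.24 ± 0.082 in the S42D line (adjusted p = 0.029), and was at -0.19 in S42A (adjusted p = 0.079). These small counts moved with single arrays. In S42D against Tw1KD 4 were called without Tw1KD replicate 3 and 1 without S42D replicate 1, in the wild-type line 10 without Tw1KD replicate 3, and in Tw1KD against parental cells 1 without parental replicate 1 or 3.

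Few genes on the list of BMP and GDF ligands passed the test, and those that did were lower. Of 15 measured, 2 were lower in S42D against Tw1KD, 2 in S42A, 3 in the wild-type line and 2 in Tw1KD against parental cells, with none higher in any of these. Their median differences were -0.094, -0.010, -0.12 and -0.029. Bmp7, the ligand with the largest change, fell by 3.08 ± 0.049 in the S42A line (7.12 there, against 10.20 in Tw1KD cells, adjusted p = 6.0e-15), by 0.42 ± 0.049 in the S42D line and 0.37 ± 0.049 in the wild-type line, and by 0.24 ± 0.049 on depletion. Bmp5 fell by 1.09 ± 0.096 in Tw1KD cells, to a dim level of 5.57, against 6.66 in parental cells, and was called in none of the returned lines against Tw1KD (-0.085 in S42D, 0.031 in S42A and -0.13 in wild type). Bmp1, on the list by name, encodes a procollagen protease and not a receptor ligand, and it is in the counts of all 3 returned lines. Bmp1 fell by 0.84 ± 0.036 in the wild-type line, by 0.45 ± 0.036 in the S42A line and by 0.10 ± 0.036 in the S42D line. The S42D count was 1 when either Tw1KD replicate 1 or 2 or S42D replicate 1 or 2 was left out, and 1 with median centring.

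Among 15 genes of BMP receptors, co-receptors and the Smads they activate, 6 were lower and 1 higher in Tw1KD against parental cells, 5 higher and 3 lower in S42D against Tw1KD, 7 higher and 3 lower in S42A and 6 higher and 2 lower in the wild-type line. The median differences were -0.026 for depletion and 0.044, 0.060 and 0.017 for S42D, S42A and wild type against Tw1KD. Rgma, a BMP co-receptor gene, fell by 1.38 ± 0.052 on depletion and rose by 1.50 ± 0.052 in S42D, 1.66 ± 0.052 in S42A and 1.11 ± 0.052 in the wild-type line (adjusted p of 3.7e-10 or below). Eng, the gene of the co-receptor endoglin, fell by 0.63 ± 0.037 on depletion and rose by 0.80 ± 0.037, 0.60 ± 0.037 and 0.58 ± 0.037 in the same lines. Smad1, which carries the BMP signal to the Id promoters, went the other way, 0.17 ± 0.061 higher on depletion (adjusted p = 0.043) and 0.41 ± 0.061, 0.38 ± 0.061 and 0.33 ± 0.061 lower in S42D, S42A and wild type against Tw1KD. The type II receptor gene Acvr2a fell by 0.22 ± 0.067 on depletion and rose by 0.58 ± 0.067 in S42D, 0.69 ± 0.067 in S42A and 0.45 ± 0.067 in the wild-type line. Rgmb, another co-receptor gene of the Rgma family, fell by 0.21 ± 0.045 on depletion and rose by 0.60 ± 0.045, 0.37 ± 0.045 and 0.15 ± 0.045 in the same lines. The type I receptor gene Bmpr1a fell by 0.13 ± 0.037 in S42D, 0.25 ± 0.037 in S42A and 0.39 ± 0.037 in the wild-type line. The depletion count of 7 was 4 without Tw1KD replicate 2 and 4 with median centring.

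Of 16 BMP antagonist genes analysed, 3 were higher and 4 lower in S42D against Tw1KD, 3 and 3 in S42A, 1 and 4 in the wild-type line and 3 higher and 2 lower in Tw1KD against parental cells. Their medians were -0.072, -0.011, -0.12 and 0.013. Nbl1, which encodes the antagonist DAN, was 1.96 ± 0.062 higher in the S42D line (3.89-fold, adjusted p = 5.1e-12) 0.92 ± 0.062 higher in the S42A line and 0.28 ± 0.062 higher on depletion, with 0.14 ± 0.062 in wild type minus Tw1KD (adjusted p = 0.081). Fstl3, whose product binds activins and BMPs, rose by 0.61 ± 0.037 on depletion and fell by 1.36 ± 0.037 in S42D, 1.17 ± 0.037 in S42A and 0.96 ± 0.037 in the wild-type line. Twsg1, a BMP-binding modulator, rose by 0.45 ± 0.043, 0.37 ± 0.043 and 0.39 ± 0.043 in the same lines and fell by 0.18 ± 0.043 on depletion. In the wild-type line the count of 5 was 3 if Tw1KD replicate 2 or wild-type replicate 1 was left out, and 9 without Tw1KD replicate 3.

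Other genes that BMP signalling is known to induce moved in both directions. Of 14 analysed, 4 were higher and 2 lower in S42D against Tw1KD, 4 and 4 in S42A, 5 and 2 in the wild-type line and 3 higher and 3 lower in Tw1KD against parental cells, with medians between -0.043 and 0.037. The inhibitory Smad gene Smad6 fell by 0.50 ± 0.049 on depletion and rose by 0.90 ± 0.049 in S42D, 0.29 ± 0.049 in S42A and 0.40 ± 0.049 in the wild-type line. Smad7, which encodes another inhibitory Smad, rose by 0.52 ± 0.043 in S42D, 0.56 ± 0.043 in S42A and 0.65 ± 0.043 in the wild-type line, and by 0.14 ± 0.043 on depletion. Gata3, the luminal mammary transcription factor, fell by 0.81 ± 0.036 on depletion and rose by 0.57 ± 0.036, 0.96 ± 0.036 and 0.67 ± 0.036 in S42D, S42A and wild type. Junb, an AP-1 subunit gene, fell by 0.24 ± 0.053, 0.55 ± 0.053 and 0.43 ± 0.053 in these lines, and was at 0.13 on depletion (adjusted p = 0.074). Id1, Id2 and Id3, which are BMP-induced too, were described above and are not in this count.

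**Figure D4:**
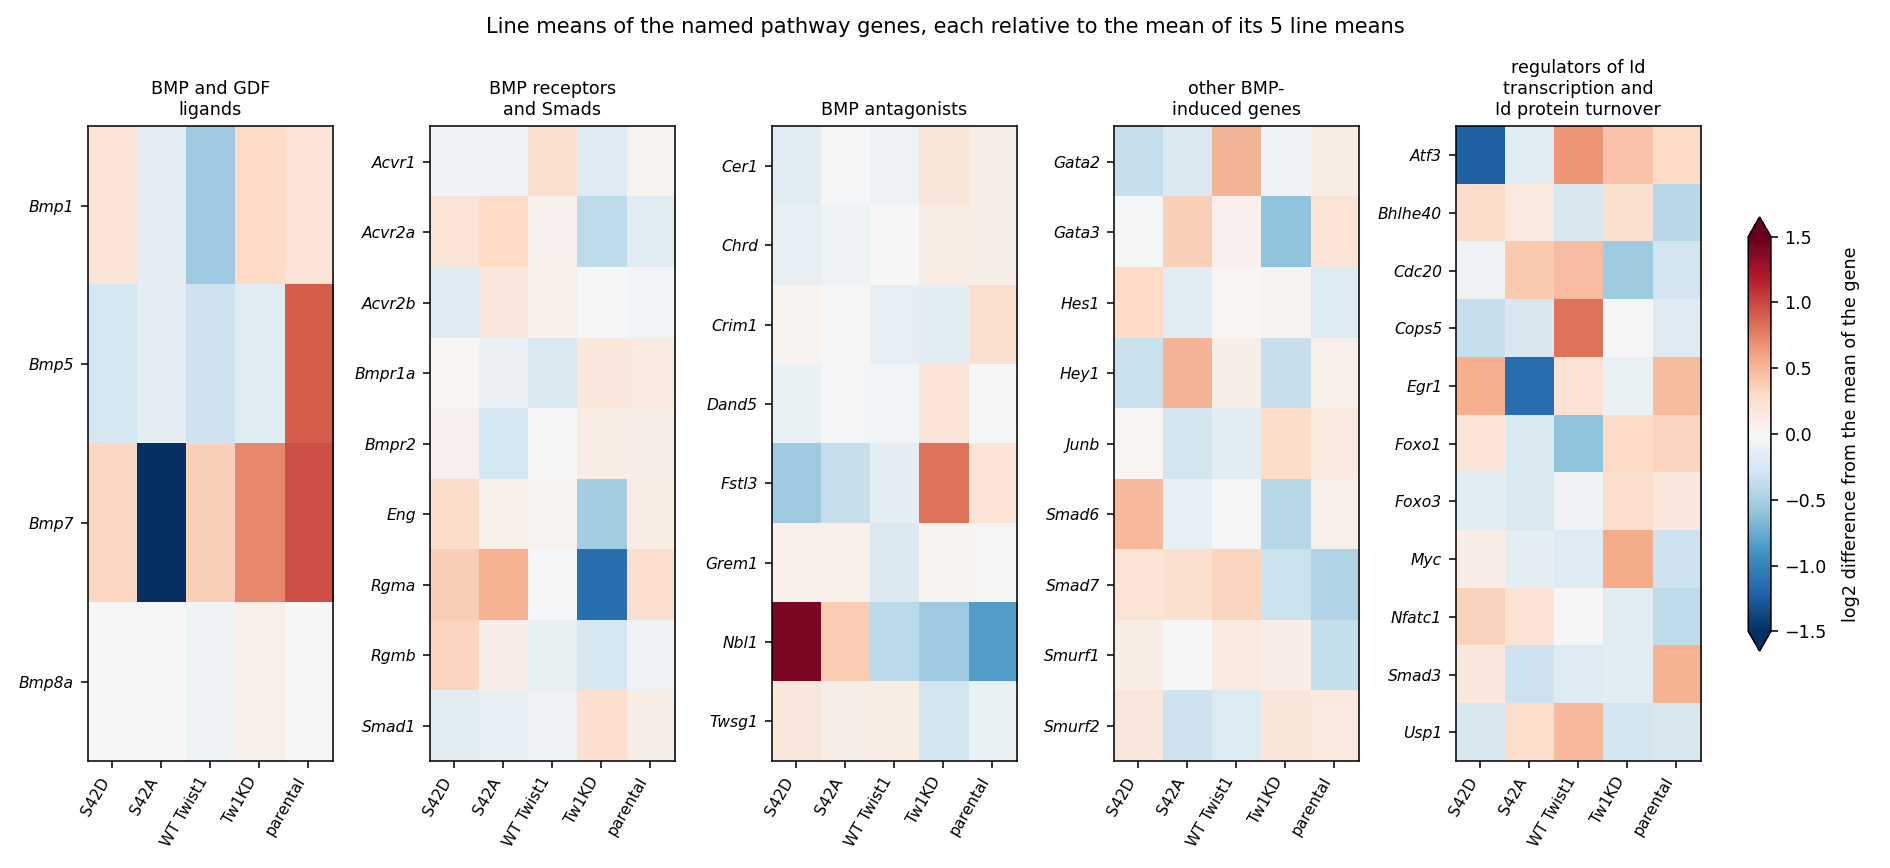
Line means of the named genes of 5 lists (rows) in the 5 lines (columns), as log2 differences from the mean of the 5 line means of each gene, with red above and blue below. Bmp7 is dark blue in the S42A column and Nbl1 dark red in the S42D column, and Rgma is blue in the Tw1KD column.

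Of 15 regulators of Id transcription or Id protein turnover, 5 were higher and 5 lower in S42D against Tw1KD, 5 and 7 in S42A, 9 and 4 in the wild-type line and 4 higher and 3 lower in Tw1KD against parental cells. Their medians were 0.034, -0.098, 0.15 and 0.024. Atf3, known in human epithelial cells as a partner of Smad3 in repressing ID1, fell by 1.65 ± 0.066 in the S42D line (8.51 there, against 10.16 in Tw1KD cells, adjusted p = 6.6e-11) and by 0.60 ± 0.066 in the S42A line. Atf3 was 0.24 ± 0.066 higher in the wild-type line (adjusted p = 0.0085) and was at 0.14 on depletion (adjusted p = 0.14). Egr1, an immediate early factor, was 0.64 ± 0.049 higher in S42D, 1.05 ± 0.049 lower in S42A and 0.31 ± 0.049 higher in the wild-type line than in Tw1KD cells, and fell by 0.57 ± 0.049 on depletion. Smad3 fell by 0.70 ± 0.036 on depletion, rose by 0.33 ± 0.036 in S42D and fell by 0.14 ± 0.036 in S42A, with -0.023 in the wild-type line (adjusted p = 0.63). Myc, reported to activate Id2, rose by 0.87 ± 0.043 on depletion and fell by 0.46 ± 0.043, 0.71 ± 0.043 and 0.76 ± 0.043 in S42D, S42A and wild type. The forkhead factor gene Foxo1 fell by 0.52 ± 0.048 in S42A and by 0.90 ± 0.048 in the wild-type line, with -0.098 in S42D (adjusted p = 0.12). Foxo3 fell by 0.41 ± 0.061 in S42D, by 0.49 ± 0.061 in S42A and, in the wild-type line, fell by 0.30 ± 0.061. Neither was called on depletion (-0.034 for Foxo1 and 0.083 for Foxo3).

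For protein turnover, Usp1, whose human counterpart removes ubiquitin from ID proteins, rose by 0.53 ± 0.049 in the S42A line and by 0.76 ± 0.049 in the wild-type line, and was not called in S42D (0.034) or on depletion (-0.037). Cdc20, an activator of the anaphase-promoting complex, rose by 0.48 ± 0.037 in S42D, 0.93 ± 0.037 in S42A and 0.99 ± 0.037 in the wild-type line, and fell by 0.26 ± 0.037 on depletion. Cops5, the COP9 signalosome protease gene, rose by 0.84 ± 0.061 in the wild-type line and by 0.17 ± 0.061 on depletion (adjusted p = 0.044), and fell by 0.32 ± 0.061 in S42D and by 0.22 ± 0.061 in S42A. Id protein was not measured.

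Among 17 genes analysed that are reported to lie downstream of Id or E proteins, 7 were higher and 4 lower in Tw1KD against parental cells, 7 and 4 in S42D against Tw1KD, 4 and 5 in S42A and 8 and 4 in the wild-type line. Their medians were -0.011, 0.14, -0.018 and 0.029. Thbs1, the thrombospondin-1 gene that Id1 is known to repress, fell by 1.68 ± 0.042 on depletion, where Id1 was higher, and rose by 1.95 ± 0.042 in S42D and 1.001 ± 0.042 in S42A, where Id1 was lower. In the wild-type line it rose by 1.12 ± 0.042 while Id1 was 0.19 higher. Against parental cells, Id1 was 0.38 higher in the S42D line, with Thbs1 at 13.12 there and 12.84 in parental cells. The fall of Id1 in S42A was not called with median centring. A link of Thbs1 to Id1 was not tested. Cdh1, the E-cadherin gene, a known target of repression by Twist1 and by E proteins, rose by 1.15 ± 0.045 on depletion and fell by 3.95 ± 0.045 in S42D, by 5.12 ± 0.045 in S42A and, in the wild-type line, fell by 2.94 ± 0.045. Of the cell cycle genes, the inhibitor gene Cdkn2c fell by 0.49 ± 0.049 on depletion and rose by 0.42 ± 0.049 in S42D, 0.88 ± 0.049 in S42A and 0.50 ± 0.049 in the wild-type line. The cyclin gene Ccne1 rose by 0.72 ± 0.053 on depletion, by 1.34 ± 0.053 in S42A and by 1.08 ± 0.053 in the wild-type line, with 0.14 in S42D (adjusted p = 0.051). Rb1, the retinoblastoma gene, rose by 0.31 ± 0.049 on depletion and fell by 0.61 ± 0.049, 0.76 ± 0.049 and 0.92 ± 0.049 in S42D, S42A and wild type. Bmi1, a Polycomb gene, rose by 0.23 ± 0.059 on depletion and by 0.77 ± 0.059 in the wild-type line, and fell by 0.67 ± 0.059 in S42D and by 0.20 ± 0.059 in S42A. The protease gene Mmp14 rose by 0.11 ± 0.035 on depletion and fell by 0.65 ± 0.035 in S42A and by 0.83 ± 0.035 in the wild-type line, with -0.046 in S42D (adjusted p = 0.34). The chemokine receptor gene Cxcr4, at a dim 5.99 in Tw1KD cells, fell by 0.35 ± 0.098 on depletion and rose by 0.81 ± 0.098 in S42D and 0.49 ± 0.098 in the wild-type line, with -0.024 in S42A (adjusted p = 0.89).

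The HES, HEY and related repressors, helix-loop-helix factors with a basic region of their own, gave 2 higher and 1 lower of 12 in S42D against Tw1KD, 1 and 2 in S42A, 2 and 2 in the wild-type line and 4 higher and 2 lower in Tw1KD against parental cells. Medians were -0.015, -0.0020, -0.080 and 0.0028. Hes6 fell by 0.47 ± 0.070 on depletion and rose by 0.68 ± 0.070 in the S42D line, with 0.011 in S42A and -0.027 in wild type (not called). Hes7 rose by 0.39 ± 0.058 on depletion and fell by 0.44 ± 0.058, 0.52 ± 0.058 and 0.56 ± 0.058 in S42D, S42A and wild type. Hey1, a Notch and BMP target, fell by 0.42 ± 0.076 on depletion and rose by 0.86 ± 0.076 in S42A and 0.43 ± 0.076 in the wild-type line, with 0.0092 in S42D (adjusted p = 0.94). Bhlhe40 (Dec1), also among the regulators, rose by 0.66 ± 0.054 on depletion and fell by 0.49 ± 0.054 in the wild-type line, with 0.034 in S42D and -0.098 in S42A (not called).

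Genes with the pattern most like each Id gene were taken by Pearson correlation over the 15 arrays among the 2509 genes whose line means spanned at least 1 log2 unit, less 89 Id genes and predicted or clone-named models that were passed over, which left 2420. The 3 arrays of a line share its genotype, so the 15 arrays are not independent points and the correlations describe these lines only. Because the genes were chosen for likeness, high or low lines shared with the Id gene were likely from the start. For Id1 they were Gfod1 (r = 0.960), Hells (0.957), a chromatin remodelling helicase gene, and Gabpb2 (0.955). Hells, like Id1, was lowest in parental cells, at 9.002 in S42D, 9.33 in S42A, 10.03 in wild-type Twist1, 9.67 in Tw1KD and 8.72 in parental cells.

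For Id2 the closest genes were Gper1 (0.985), the G protein-coupled estrogen receptor gene, P2rx4 (0.983), an ATP-gated channel gene, and Chst2 (0.982), a sulfotransferase gene. Gper1 had 10.15 in S42D, 10.28 in S42A, 8.96 in wild-type Twist1, 7.09 in Tw1KD and 9.28 in parental cells, a span of 3.19 log2 against 1.18 for Id2. For Id3 they were S100a1 (0.980), a calcium-binding protein gene, Wdr31 (0.978) and Trim44 (0.976). S100a1 was 9.14 in S42D and 10.94, 10.99, 10.99 and 10.96 in the S42A, wild-type Twist1, Tw1KD and parental lines, low in S42D alone as Id3 was. For Id4 they were Zc4h2 (0.980), Celf4 (0.967), an RNA-binding protein gene, and Zfp704 (0.962). Zc4h2 had 6.84 in S42D, 7.49 in S42A, 5.96 in wild-type Twist1, 6.12 in Tw1KD and 5.92 in parental cells.

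With Spearman correlation, 1 of these 3 names was among the top 3 for Id1, 0 for Id2, 1 for Id3 and 1 for Id4, and with correlation of the 5 line means 2 of 3 were for each. None of the names was shared between the 4 Id genes, but with only 3 of 2420 genes taken for each, a shared name was unlikely from the start.

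**Figure D5:**
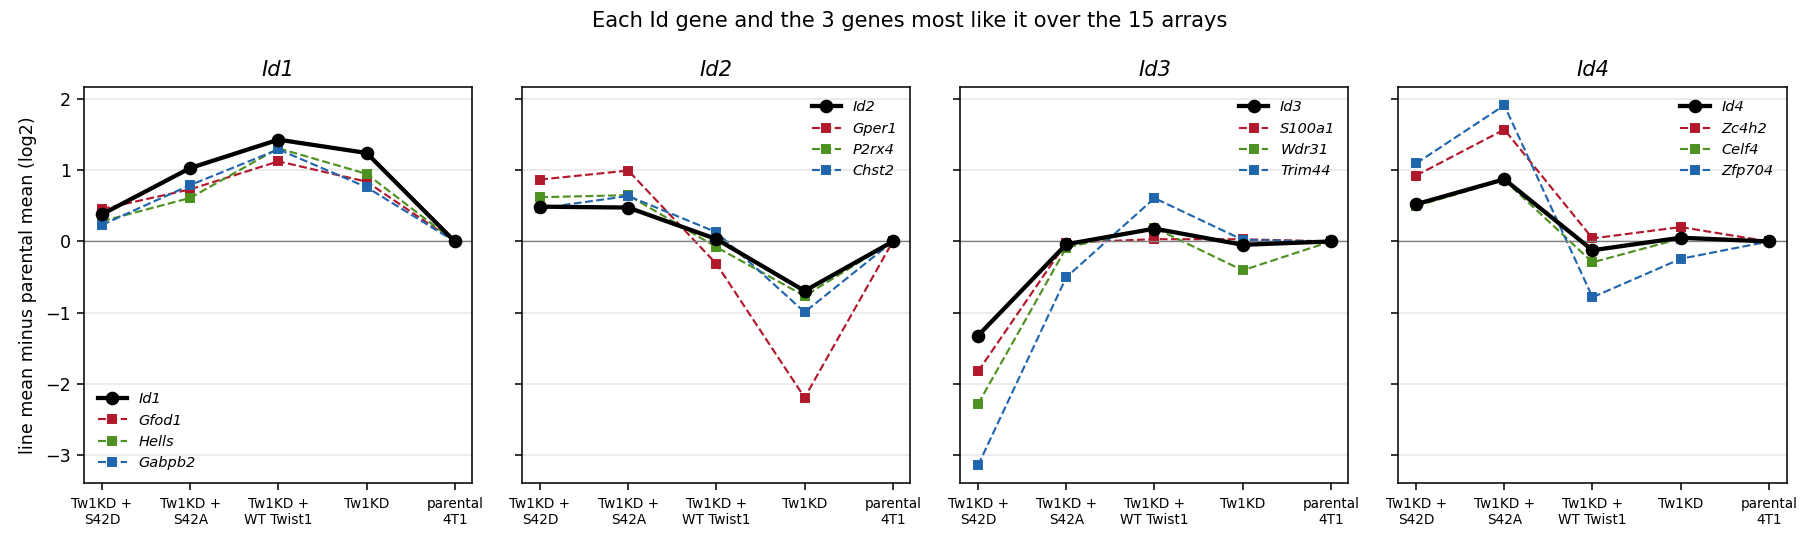
Line means of each Id gene and of the 3 genes most like it over the 15 arrays, each as its log2 difference from its own mean in parental cells. In the Id3 panel all 4 genes lie lowest in the S42D line, and in the Id2 panel all 4 lie lowest in Tw1KD cells. The genes were picked for likeness on these same arrays, so a shared lowest line was likely from the start.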

How the data were processed

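Arrays of 5 lines with 3 samples each were analysed; groups came from the sample titles. The authors deposited a single log2 intensity for each probe set and array, a unit read from the values. The submitters' processing notes name R 2.10.0 and affy without a role; background correction and normalization are not given in the sources used here. Scaling between arrays, if applied, would remove a change shared by all transcripts. Depth has no meaning for arrays, and 3 arrays per line limit the precision.

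Of 34760 probe sets, 21640 carried 1 symbol, updated by gene number from the GRCm38.p6 table (21553 matched), and the brightest per gene gave 19937 genes. All 15 arrays were fitted in limma 3.58.1 (R 4.3.3) with a mean per line. The test was 2-sided, with Benjamini-Hochberg adjustment over all genes within each of 10 comparisons, and the code was tested on simulated data. No filter on dim genes was used. Same-numbered arrays of different lines had correlated deviations (r over 0.1) in 7 of 30 pairs (-0.39 to 0.42). Pairs with unlike numbers ranged from -0.44 to 0.43 over all lines, so values over 0.1 were not confined to equal numbers. Between Tw1KD and parental arrays, r was 0.015, 0.39 and 0.42 for equal numbers and -0.44 to 0.14 for unlike numbers. Whether numbers pair samples is not given and cannot be settled by this count. The main fit did not pair by number. From 9 pathway lists, at most 3 called genes per direction and comparison with non-overlapping arrays were eligible to be named, those with the largest differences. The text describes a part of these, picked after their values were seen. The members and lists were chosen with earlier results of these data known. Alternatives changed the scaling, the dim-gene filter, the probe set rule, the probe sets tested, the arrays fitted, the replicate block, the variance trend, array weights and single arrays.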

Additional observations from a re-analysis of the deposited data

Results flagged for a closer look

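Against Tw1KD cells, the returned forms of Twist1 were followed by called changes of opposite direction for 3 genes, and the difference between the forms was itself called. Id1 was -1.05 ± 0.051 in S42D minus wild type (log2, adjusted p = 5.1e-10) and -0.40 ± 0.051 in S42A minus wild type (adjusted p = 1.7e-05), with both substituted lines below Tw1KD on all 3 arrays and the wild-type line above it on all 3. The fall of Id1 in S42A against Tw1KD was not called with median centring (-0.15, adjusted p = 0.086). Id3 was -1.50 ± 0.082 in S42D minus wild type (adjusted p = 1.7e-09). The call of its rise in the wild-type line over Tw1KD was lost in 3 of 6 fits that left out 1 array. Tcf4 was 0.79 ± 0.035 in S42D minus wild type and 0.53 ± 0.035 in S42A minus wild type (adjusted p = 2.1e-10 and 2.0e-08), with both substituted lines above Tw1KD and the wild-type line below it. Lines of 3 arrays were not tested for single arrays that stand apart.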

How the results depend on the processing

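Of the 40 Id differences, 29 kept direction and call under all 9 other settings and when each of the 15 arrays was left out in turn. All values are log2 differences. Median centring gave -0.15 for Id1 in S42A minus Tw1KD (no longer called), 0.052 for Id3 in S42A minus parental and 0.00078 for Id4 in wild type minus parental (signs turned), and 0.30 for Id3 in wild type minus parental (called, adjusted p = 0.011). Quantile normalization turned the sign of Id2 (-0.0042) and Id4 (0.0027) in wild type minus parental. Array weights gave -0.089, 0.064 and 0.14 for Id3 in S42A minus Tw1KD, Tw1KD minus parental and wild type minus Tw1KD, the last no longer called, and 0.21 in wild type minus parental (called). Testing all probe sets ended the calls of Id3 in S42A minus wild type (-0.22, adjusted p = 0.074) and wild type minus Tw1KD (0.23, adjusted p = 0.052), and fitting only the 2 lines ended the call in wild type minus Tw1KD (0.23, adjusted p = 0.13). The replicate block ended the call of Id3 in S42A minus wild type (-0.22, adjusted p = 0.058) and changed no other of the 40 calls. Leaving out 1 array each gave -0.016 to 0.043 for Id2 in S42D minus S42A, -0.22 to -0.13 for Id4 in wild type minus Tw1KD, and for Id3 -0.29 to -0.17 in S42A minus wild type, -0.11 to 0.073 in S42A minus Tw1KD, 0.11 to 0.30 in wild type minus Tw1KD, -0.11 to 0.067 in Tw1KD minus parental and 0.13 to 0.25 in wild type minus parental. Fewer arrays were fitted there; the cause was otherwise not tested.

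Signs also turned for values near 0. With centring these were Twist1 in S42D minus parental (0.046), Tcf3 in wild type minus parental (0.035), Tcf4 in S42A minus parental (0.033) and Tcf12 in S42D minus Tw1KD (0.035) and wild type minus parental (0.020). With quantile normalization they were Tcf3 in S42D minus wild type (0.022) and S42A minus wild type (0.030), and with array weights Tcf3 in S42D minus S42A (0.0050). With 1 array left out, Tcf3 ranged from -0.013 to 0.0064 in S42D minus S42A and from -0.022 to 0.00069 in S42A minus wild type, and Tcf12 from -0.033 to 0.020 in S42D minus Tw1KD. Of the lists, median centring left 1 E protein gene called on depletion instead of 2 and 1 tissue-restricted factor in S42D minus Tw1KD instead of 2. Quantile normalization left 1 tissue-restricted factor in S42D minus Tw1KD too. It also left 1 gene of the ligand list in S42D minus Tw1KD instead of 2, and 2 antagonists in wild type minus Tw1KD instead of 5. The number of genes called in a comparison stayed within 0.843 to 1.08 times the reported number. Array signal near background compresses folds, and background was not analysed here.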
